A study of Homo sapiens with 22 samples.

Results

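KALS-1, LN-18 and T98G are established human glioblastoma cell lines grown in serum. KALS-1 (RPMI 1640) was compared with LN-18 (DMEM) and T98G (EMEM), all with 10% fetal bovine serum; medium and line cannot be told apart. The comparison used the 2 KALS-1 libraries against 2 LN-18 and 2 T98G libraries, 6 of the 22 libraries (11 lines) in the series, and all 2221 genes of the deposited table that holds these lines. The labels name no engineered allele and no treatment. Poly(A) RNA was sequenced from strand-specific libraries. The labels do not say that a line's 2 libraries are separate cultures; every p-value here therefore reflects the spread between libraries alone, and that spread may be technical.

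A level is given as CPM, the reads of a gene scaled by its library's total, with both libraries of a line side by side. A gene is called higher or lower in KALS-1 only where it differed the same way from LN-18 and from T98G. In each contrast the edgeR quasi-likelihood test had to give a Benjamini-Hochberg adjusted p under 0.05 and a fold of at least 2 (1 on the log2 scale), and both KALS-1 libraries had to lie beyond all 4 others. Library totals, worked back from the deposited values, were 17131277 and 19595218 reads for KALS-1, 19143045 and 19652670 for LN-18, and 18862451 and 17117491 for T98G. Between the libraries of a line, 89.3% (KALS-1), 90.6% (LN-18) and 54.5% (T98G) of genes with at least 20 reads lay within 1.5-fold of each other. The T98G libraries therefore differed more than the others, and T98G levels, where given, stand for each library or as a bound over libraries. Of the 2221 listed genes, 99.3% differed by 2-fold or more in mean FPKM between these 3 lines and the other 5 lines of the table. The counts below describe those listed genes and not the transcriptome.

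Type I interferons signal through a surface receptor to transcription factors that bind a short DNA element in the promoters of interferon-stimulated genes. Those genes encode antiviral effectors, such as the MX GTPase and the OAS enzymes that make oligoadenylates when they bind double-stranded RNA. A separate group of genes keeps glutathione and NADPH in supply and clears aldehydes and foreign compounds; many of its members are targets of the factor NRF2.

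Of 1560 genes tested (661 had too few reads), 324 were higher in KALS-1 than in both other lines, 20.8% of those tested, and 213 were lower, 13.7%. The call rested on wide gaps for many of them. The smaller of the 2 log2 fold changes was at least 5 for 51 of the higher and 54 of the lower genes, and its median size was 2.59 and 3.20. Over LN-18 alone, 446 genes (28.6%) were higher and 463 (29.7%) lower in KALS-1, and over T98G alone 556 (35.6%) and 326 (20.9%). The 2 contrasts share the KALS-1 libraries, so their calls are not independent. Without T98G replicate 1 there were 346 higher and 225 lower genes in both contrasts, and without T98G replicate 2 there were 365 and 208. In both of these fits edgeR's common dispersion, its estimate of the spread between libraries of a line, was 0.00172, against 0.0515 with all 6 libraries. The T98G pair therefore sets most of the estimated spread, and the lone T98G library is given one smaller than its own pair shows, so calls over T98G without either T98G library are too liberal. The scaling moved the second contrast: with TMM factors of the listed genes the median log2 fold change over T98G dropped by 0.42 and that over LN-18 by 0.08. A higher call whose log2 fold change over T98G lies above 1 by less than that shift, such as those of LY6E (1.12), BST2 (1.35) and PORCN (1.24), falls under the fold with TMM factors. Genes called in both contrasts were then 53% higher, in place of 60.3%, and calls against T98G 53.1% higher, in place of 63.0%.

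The gene furthest from both lines that carries a symbol was LGR5 (chromosome 12, 71439770 to 71586310), a receptor for R-spondins that marks stem cells of the gut. It had 150.3 and 149.8 CPM in KALS-1, against no read in LN-18 and 0.05301 and 0 CPM in T98G. All of the KALS-1 signal stood against a single read in the 4 other libraries, and its level over LN-18 was at least 1941-fold higher, set against 3 reads over both libraries. Its log2 fold change over T98G was 12.09 (SE 0.42, edgeR adjusted p = 5.94e-06). EMCN, which encodes the endothelial surface sialomucin endomucin, had 17.3 and 16.2 CPM in KALS-1, against no read in either LN-18 or T98G. That is at least 217-fold higher than LN-18 and at least 201-fold higher than T98G. The gene ENSG00000289337, with no symbol in the reference used, had 79.9 and 71.4 CPM in KALS-1, against no read in either LN-18 or T98G. In all, 5 of the 324 higher genes had no read in any LN-18 or T98G library.

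Other genes at the top of the higher group have roles that are usually studied in heart, kidney or gut. NPPB, which encodes the precursor of a natriuretic peptide, had 50.8 and 47.2 CPM in KALS-1, against 0.104 and 0.153 CPM in LN-18 and no read in T98G. HCN4, a pacemaker channel of the sinus node, had 17.8 and 18.8 CPM in KALS-1, against no read in LN-18 and 0.159 and 0 CPM in T98G. SLC6A20, a proline and imino acid transporter, had 10.6 and 9.696 CPM in KALS-1, against 0 and 0.0509 CPM in LN-18 and 0.05301 and 0 CPM in T98G. For these 3 genes the KALS-1 libraries agree closely and none of the 4 others reached 0.2 CPM. PNPLA4, a lipase and retinol esterase gene, stood at 16.1 and 14.7 CPM in KALS-1 and at 1 read at most in any other library. TSPYL5, of the TSPY-like family, stood at 25.1 and 25.7 CPM in KALS-1 and at 0 and 0.117 CPM in T98G, with no read in LN-18. The antisense gene ENSG00000254187 was at 30.4 and 28.2 CPM in KALS-1 and under 0.1 CPM in the others.

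The genes furthest below both lines were near silent in KALS-1 and well expressed elsewhere. GABRA2 (chromosome 4, 46248427 to 46475230), the alpha-2 subunit of the GABA-A receptor, had 0.0584 and 0.05103 CPM in KALS-1, against 173 and 161 CPM in LN-18 and 114 and 262 CPM in T98G. Its log2 fold change was -11.41 (SE 0.67, adjusted p = 1.88e-05) over LN-18 and -11.58 (SE 0.67, adjusted p = 1.21e-05) over T98G in the edgeR test. TNFRSF11B, which encodes osteoprotegerin, a decoy receptor for RANKL, had 0.0584 and 0.306 CPM in KALS-1, against 134 and 125 CPM in LN-18 and 490.3 and 1154 CPM in T98G. The noncoding RNA LINC00942 had 0.0584 and 0 CPM in KALS-1, against 73.4 and 79.1 CPM in LN-18 and 63.2 and 65.8 CPM in T98G. In each of these 3 genes the KALS-1 libraries held at most a few reads and no library of LN-18 or T98G came near them. CYP4F11, a fatty acid hydroxylase, stood at 0.117 and 0.102 CPM in KALS-1, against 35.1 and 34.8 CPM in LN-18 and 51.1 and 93.2 CPM in T98G. TBXAS1, thromboxane synthase, had 0.525 and 0.408 CPM in KALS-1, against 46.8 and 49.6 CPM in LN-18 and 45.9 and 146 CPM in T98G. SLC7A2, a transporter of cationic amino acids, had 0.759 and 0.306 CPM in KALS-1, against 51.04 and 47.9 CPM in LN-18 and 69.3 and 50.8 CPM in T98G. Of the 213 lower genes, 35 had no read in either KALS-1 library.

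**Figure D1:**
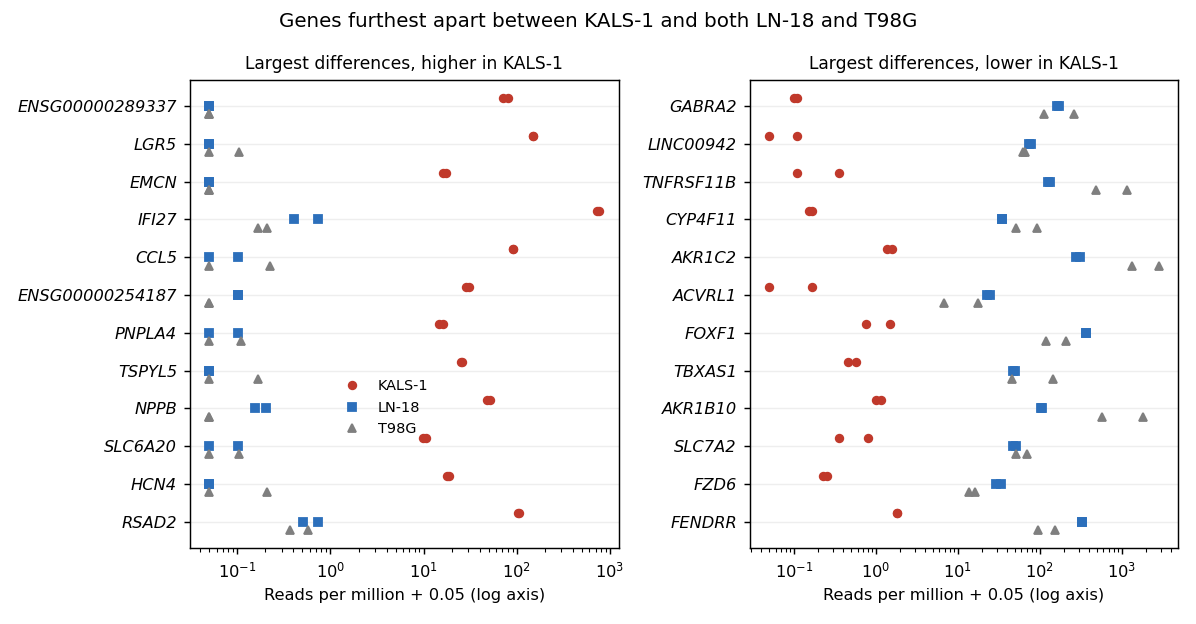
Level of the 12 higher and 12 lower genes with the largest differences, 1 point per library (2 per line), as CPM plus 0.05 on a log axis; red circles are KALS-1, blue squares LN-18 and grey triangles T98G. LGR5 lies at 150.3 and 149.8 CPM in KALS-1 and near 0 elsewhere, GABRA2 the other way round, and the T98G points are the most spread.

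Most of the interferon-stimulated genes in the table were higher in KALS-1. Of 66 genes on that list, 27 were in the table and all 27 were tested: 19 were higher in KALS-1 than in both lines, 3 were lower and 5 were not called. Of all tested genes 20.8% were higher and 13.7% lower. The median log2 fold change of the 27 genes was 2.99 over LN-18 and 4.19 over T98G, beside 0.01 and 0.49 for all tested genes. Summed over the 27 genes, KALS-1 held 6488 and 6478 CPM, against 827 and 865 CPM in LN-18 and 843 and 1116 CPM in T98G. The count is of genes the table lists, and how they were chosen is not stated. A gene high in KALS-1 alone can differ between the 3 lines and the other 5 through KALS-1. Whether that raised the count and medians of this list was not tested. Of the 324 higher genes, 55.9% had a mean over the 3 lines above that of the other 5 lines, beside 53.5% of all tested genes. Of the 213 lower genes, 73.2% did. With TMM factors 17 of the 27 were higher and 4 lower. Without T98G replicate 1 the counts were 18 and 4, and without T98G replicate 2 they were 20 and 3. Lower members numbered 2 without KALS-1 replicate 2, without LN-18 replicate 2 and with the replicate block.

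Promoter windows of 4 of these genes are shown because they carry the known interferon element at different places and in genes of both directions. The windows run from 250 bases before to 50 bases after the transcription start and come from RefSeq, build GRCh38.p14, each in the direction of its gene. Capitals mark matches to the interferon-stimulated response element, searched on both strands as GAAA, any 2 bases and GAAA, with overlapping matches joined. IFI27, IFI6 and MX1 were higher in KALS-1, and IFITM3 was lower.
IFI27 (chr14:94110486-94110785, plus strand): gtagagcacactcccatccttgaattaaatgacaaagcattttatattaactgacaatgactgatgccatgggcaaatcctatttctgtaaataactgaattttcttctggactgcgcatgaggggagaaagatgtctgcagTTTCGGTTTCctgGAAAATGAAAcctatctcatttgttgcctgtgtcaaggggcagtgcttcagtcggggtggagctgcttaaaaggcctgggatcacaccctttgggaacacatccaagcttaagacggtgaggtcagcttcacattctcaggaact
IFI6 (chr1:27672143-27672442, minus strand): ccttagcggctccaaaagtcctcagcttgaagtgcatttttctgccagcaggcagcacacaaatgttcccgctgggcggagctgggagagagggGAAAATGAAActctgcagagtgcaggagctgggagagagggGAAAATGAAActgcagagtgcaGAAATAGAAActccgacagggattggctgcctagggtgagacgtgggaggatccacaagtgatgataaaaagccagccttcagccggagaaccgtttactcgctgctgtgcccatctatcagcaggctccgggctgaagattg
MX1 (chr21:41420308-41420607, plus strand): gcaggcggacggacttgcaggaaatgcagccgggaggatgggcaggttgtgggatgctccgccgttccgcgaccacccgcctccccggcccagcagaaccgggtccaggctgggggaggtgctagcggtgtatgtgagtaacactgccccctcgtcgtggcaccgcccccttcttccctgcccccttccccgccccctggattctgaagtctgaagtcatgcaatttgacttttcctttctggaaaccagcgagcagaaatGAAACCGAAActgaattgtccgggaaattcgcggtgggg
IFITM3 (chr11:320811-321110, minus strand): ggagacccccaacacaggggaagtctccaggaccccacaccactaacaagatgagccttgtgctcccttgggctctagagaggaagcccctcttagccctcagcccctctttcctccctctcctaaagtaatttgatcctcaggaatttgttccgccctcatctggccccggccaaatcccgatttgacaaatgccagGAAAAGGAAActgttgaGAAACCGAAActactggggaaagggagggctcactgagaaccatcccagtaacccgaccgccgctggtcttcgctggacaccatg

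The IFI27, IFI6, MX1 and IFITM3 windows held 2, 3, 1 and 2 matches. Over the list, 11 of the 16 higher genes with a window in the RefSeq table held the element (68.8%), as did 1 of 2 lower genes and 16 of all 23 genes with a window (69.6%). Among all 27305 windows 3.65% held it, and among the windows of 1005 tested genes 4.88%. The gamma-activated site, searched as TTCNNNGAA on both strands, was in 4 of the 16 higher genes (25%) and in 7.88% of all windows. The window of RSAD2 held no match to the first motif. A match is a description of these letters and not a test of binding.

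The members with the widest gaps encode proteins of known antiviral function. IFI27, a mitochondrial protein and one of the most inducible genes of the response, had 763 and 727 CPM in KALS-1, against 0.679 and 0.356 CPM in LN-18 and 0.159 and 0.117 CPM in T98G. RSAD2, which encodes viperin, an enzyme that makes a chain-terminating nucleotide, had 106 and 103 CPM in KALS-1, against 0.679 and 0.458 CPM in LN-18 and 0.318 and 0.526 CPM in T98G. IFI44L, a gene of the same response, had 323 and 365 CPM in KALS-1, against 3.55 and 2.9 CPM in LN-18 and 1.43 and 1.75 CPM in T98G. The KALS-1 libraries lay more than 90-fold above every other library for each of these 3 genes. The log2 fold change of RSAD2 was 7.51 (SE 0.29, adjusted p = 4.88e-06) over LN-18 and 7.94 (SE 0.30, adjusted p = 5.18e-06) over T98G in edgeR's test, and that of IFI44L was 6.74 over LN-18 and 7.75 over T98G.

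IFI6, another mitochondrial member, had 1309.9 and 1318 CPM in KALS-1, against 15.4 and 16.9 CPM in LN-18 and 9.81 and 13.6 CPM in T98G. MX1, a GTPase that blocks viral nucleocapsids, had 619.7 and 622 CPM in KALS-1, against 16.4 and 15.4 CPM in LN-18 and 9.65 and 11.3 CPM in T98G. Both gaps were wide against the library spread, with log2 fold changes for IFI6 of 6.34 (SE 0.26, adjusted p = 4.88e-06) over LN-18 and 6.81 (SE 0.27, adjusted p = 5.48e-06) over T98G in edgeR's test, and for MX1 of 5.29 over LN-18 and 5.89 over T98G. Per kilobase of the deposited gene length, IFI6 had the highest KALS-1 level of the list (1404 CPM per kilobase), followed by ISG15 (338), the ubiquitin-like modifier, and IFITM1 (194). The OAS and IFIT genes and the others of the next paragraphs are list members outside the naming rule, picked after their values were seen.

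The OAS genes OAS1, OAS2 and OAS3 were each called higher in KALS-1. OAS1 had 130.1 and 127 CPM in KALS-1, against 4.86 and 5.14 CPM in LN-18 and 5.09 and 5.9 CPM in T98G. OAS2 had 328 and 339 CPM in KALS-1, against 6.53 and 7.23 CPM in LN-18 and 5.73 and 12.03 CPM in T98G, and OAS3 had 501 and 520.1 CPM in KALS-1, against 121 and 125 CPM in LN-18 and 30.1 and 34.1 CPM in T98G. OAS3 was the least separated from LN-18 (log2 fold change 2.05, edgeR adjusted p = 6.78e-05), and LN-18 held over 100 CPM of it in both libraries. The RNA-binding IFIT1 and IFIT3 had 258 and 259 CPM and 231 and 241 CPM in KALS-1, and at most 14.2 CPM in any other library. USP18, which removes ISG15 from proteins and dampens the receptor, had 58.9 and 56.6 CPM in KALS-1, against 6.95 and 7.12 CPM in LN-18 and 1.96 and 2.51 CPM in T98G. CMPK2, HERC6, BST2, LY6E, HELZ2 and GBP4 were called higher too, with log2 fold changes over LN-18 between 1.10 (GBP4) and 3.53 (CMPK2), and over T98G between 1.12 (LY6E) and 5.26 (CMPK2). Without T98G replicate 1, LY6E (0.86) and BST2 (0.87) fell under the fold over T98G, and BST2 missed the threshold of edgeR's test without either KALS-1 library (adjusted p = 0.0623 to 0.0779). GBP4 fell under the fold over LN-18 with RLE factors (0.99).

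The list was not uniform, and 3 members ran the other way. XAF1, a proapoptotic gene that interferon usually induces, had 0.175 and 0.408 CPM in KALS-1, against 3.87 and 5.24 CPM in LN-18 and 13.3 and 7.36 CPM in T98G. IFITM3, a membrane protein that blocks viral entry, had 90.4 and 77.01 CPM in KALS-1, against 167 and 168 CPM in LN-18 and 347 and 435 CPM in T98G, and IFITM2 had 9.75 and 7.71 CPM in KALS-1, against 26.4 and 26.97 CPM in LN-18 and 23.8 and 44.05 CPM in T98G. All 3 were called lower in KALS-1, while IFITM1, of the same gene family as IFITM2 and IFITM3, stood at 335 and 312 CPM in KALS-1, against 26.6 and 24.5 CPM in LN-18 and 7.05 and 25.9 CPM in T98G. The call for IFITM3 over LN-18 lay at the edge of the 2-fold threshold, and it was lost without KALS-1 replicate 2 (log2 fold change -0.89), without LN-18 replicate 2 and with the replicate block. Reads of IFITM2 and IFITM3 can be shared between these near-identical copies, so their values are uncertain. EPSTI1 had 41.2 and 38.4 CPM in KALS-1, against 18.4 and 16.8 CPM in LN-18 and 17.1 and 4.97 CPM in T98G, TRIM14 98.01 and 105 CPM in KALS-1, against 66.9 and 68.03 CPM in LN-18 and 35.5 and 40.1 CPM in T98G, and PARP12 53.4 and 58.9 CPM in KALS-1, against 37.9 and 44.5 CPM in LN-18 and 33.3 and 29.8 CPM in T98G. For these 3 the KALS-1 libraries were the highest, but 1 or both contrasts did not pass. Both KALS-1 libraries lay above all 4 others in 542 of the 1560 tested genes, called or not. ISG20 (log2 fold change 0.41 over LN-18 and 0.82 over T98G) was called in neither contrast, and IFI35 (-1.07 over LN-18 and -0.97 over T98G) was called lower than LN-18 only.

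**Figure D2:**
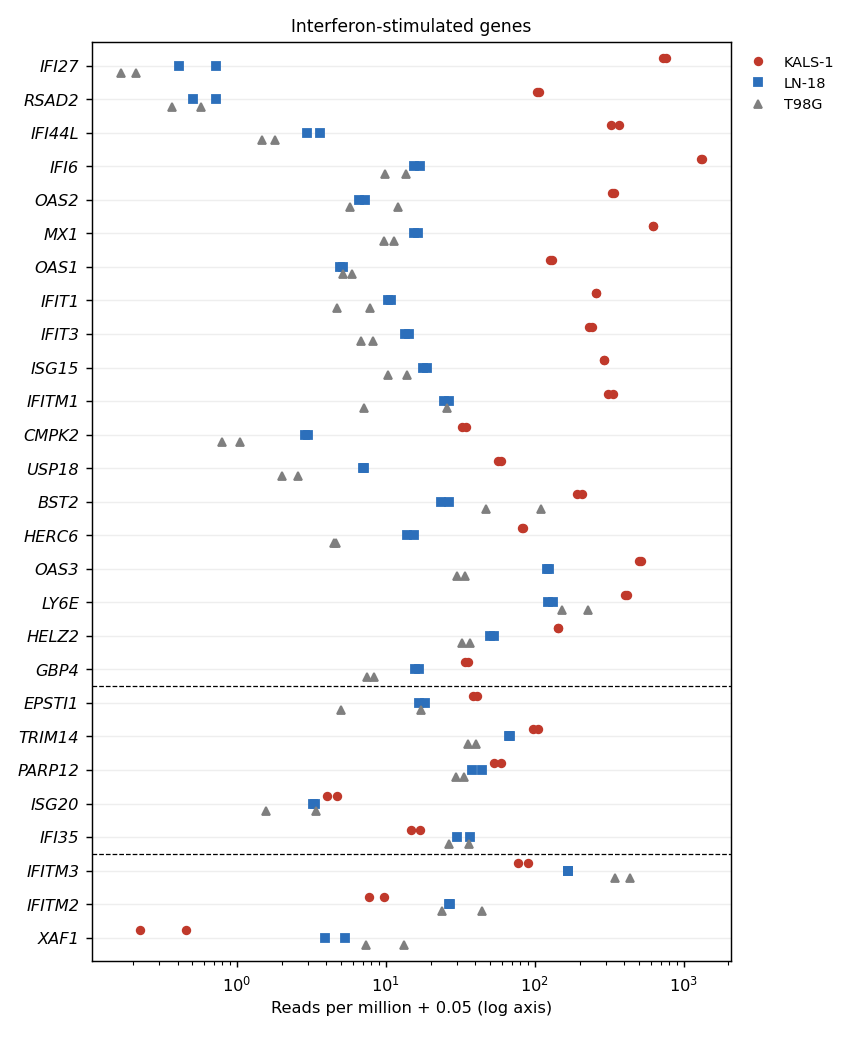
Level of the 27 interferon-stimulated genes, 1 point per library, as CPM plus 0.05 on a log axis; dashed lines part the 19 genes called higher in KALS-1 (top), the 5 not called and the 3 called lower (bottom). KALS-1 circles lie right of all other points in the top block, widest for IFI27, and left of them for XAF1, IFITM2 and IFITM3.

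Genes that sense nucleic acid or present antigen did not move as a block. Of 4 tested sensor and signalling genes 1 was called higher in both contrasts and none lower, beside 20.8% and 13.7% of all tested genes. That gene, IFIH1, the double-stranded RNA sensor MDA5, had 77.3 and 78.4 CPM in KALS-1, against 9.82 and 9.36 CPM in LN-18 and 7.48 and 16.6 CPM in T98G. CGAS, the DNA sensor, was intermediate, with 15 and 12.5 CPM in KALS-1, against 41.7 and 42.2 CPM in LN-18 and 0.106 and 0 CPM in T98G. STING1, its adaptor, had 49.1 and 47.7 CPM in KALS-1, against 8.93 and 9.41 CPM in LN-18 and 24.5 and 37.04 CPM in T98G and was called over LN-18 but not over T98G (log2 fold change 0.65, edgeR adjusted p = 0.0356, under the fold required). CGAS was called lower than LN-18 and higher than T98G. IRF1 had 26.1 and 26.2 CPM in KALS-1, against 34.2 and 35.3 CPM in LN-18 and 73.1 and 36.2 CPM in T98G and was called lower than T98G only.

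Of 3 tested class I genes none was called in both contrasts, beside 20.8% higher and 13.7% lower of all tested genes. HLA-C had 673 and 655 CPM in KALS-1, against 102 and 101 CPM in LN-18 and 440.2 and 519 CPM in T98G, with a log2 fold change of 2.71 (SE 0.19, adjusted p = 3.56e-05) over LN-18 and 0.47 (SE 0.18, adjusted p = 0.0524) over T98G in edgeR's test; its reads can be shared with other class I genes. PSMB9, a subunit of the immunoproteasome, had 49.9 and 48.6 CPM in KALS-1, against 37.2 and 37.8 CPM in LN-18 and 31.3 and 26.8 CPM in T98G, and PSMB10 had 13.7 and 13.7 CPM in KALS-1, against 14.6 and 17.8 CPM in LN-18 and 23.6 and 21.1 CPM in T98G. Of 6 tested class II genes 1 was called lower in both contrasts and none higher, beside the same shares. It was HLA-DPA1, with 0.525 and 0.204 CPM in KALS-1, against 7.99 and 8.803 CPM in LN-18 and 7.58 and 10.6 CPM in T98G. CIITA, the master regulator of class II genes, had 1.34 and 0.868 CPM in KALS-1, against 2.14 and 1.88 CPM in LN-18 and 4.51 and 11.04 CPM in T98G, and was called lower than T98G only. All 6 were called lower than T98G, beside 20.9% of all tested genes, and CD74, HLA-DRA and HLA-DMB stayed under 1 CPM in KALS-1.

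Chemokines that attract T cells were among the higher genes. CCL5 (chromosome 17, 35871491 to 35880793) had 91.5 and 91.1 CPM in KALS-1, against 0.0522 and 0 CPM in LN-18 and 0 and 0.175 CPM in T98G. Its log2 fold change was 11.46 (SE 0.62, adjusted p = 1.48e-05) over LN-18 and 9.98 (SE 0.56, adjusted p = 1.06e-05) over T98G in edgeR's test. CXCL10 had 4.203 and 3.73 CPM in KALS-1, against 0.575 and 0.305 CPM in LN-18 and 0.477 and 0.175 CPM in T98G, and CXCL11 had 3.33 and 4.695 CPM in KALS-1, against 0.104 and 0.0509 CPM in LN-18 and no read in T98G. Both were called higher, at low levels. TNFAIP3, a brake on NF-kB signalling, had 16.5 and 16.2 CPM in KALS-1, against 7.21 and 6.06 CPM in LN-18 and 6.41 and 6.31 CPM in T98G. That call was lost with TMM or RLE factors. TNFSF18, a ligand of the TNF family, was called lower, with 0.117 and 0.05103 CPM in KALS-1, against 82.7 and 88.1 CPM in LN-18 and 4.56 and 0.234 CPM in T98G. In edgeR's test its call over T98G was lost without either KALS-1 library (adjusted p = 0.103 to 0.132) or T98G replicate 1 (adjusted p = 0.229), and with limma (adjusted p = 0.077). Of the 8 tested genes of this list 4 were higher and 1 lower, beside 20.8% and 13.7% of all tested genes. The other 3, CCL2, CXCL3 and LIF, were not called in both. The chemokine genes CCL2 and CXCL3 went the other way from CCL5 and were called lower than T98G only. LIF was called in neither contrast and stood at 37.7 and 35.01 CPM in KALS-1, 39.6 and 42.2 CPM in LN-18 and 47.9 and 24.6 CPM in T98G.

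Genes of NADPH supply, glutathione and xenobiotic clearance ran the opposite way to the interferon genes. Of 62 genes on that list, 21 were in the table and 20 were tested: 12 were lower in KALS-1 than in both lines, 1 was higher and 7 were not called. The median log2 fold change was -1.88 over LN-18 and -3.39 over T98G, against 0.01 and 0.49 over all tested genes, of which 13.7% were called lower. Summed over the listed genes, KALS-1 held 2510.2 and 2490.1 CPM, against 6712 and 6896 CPM in LN-18 and 12472 and 20979 CPM in T98G. Of all 213 lower genes, 73.2% had a mean over the 3 lines above that of the other 5 lines, beside 53.5% of all tested genes. A gene high in LN-18 and T98G can differ between the 3 lines and the other 5 through those lines. Whether that raised the count of lower members was not tested. The count of 12 lower genes was the same with TMM or RLE factors and without either T98G library, and it was 10 or 11 without any 1 of the KALS-1 or LN-18 libraries.

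SLC7A11 (chromosome 4, 138164097 to 138242349), the cystine importer that feeds glutathione synthesis, had 28.5 and 32.6 CPM in KALS-1, against 1021 and 947 CPM in LN-18 and 1322 and 1401 CPM in T98G. Its log2 fold change was -5.01 (SE 0.22, adjusted p = 6.46e-06) over LN-18 and -5.48 (SE 0.23, adjusted p = 5.48e-06) over T98G in edgeR's test. GCLC, the catalytic subunit of the first enzyme of glutathione synthesis, had 22.9 and 22.5 CPM in KALS-1, against 209.8 and 199.9 CPM in LN-18 and 417 and 562 CPM in T98G. Both genes were lower in each KALS-1 library than in any other by a wide margin. NQO1, a quinone reductase, had 353 and 341 CPM in KALS-1, against 1883 and 2021 CPM in LN-18 and 2625 and 4257 CPM in T98G. OSGIN1, a growth inhibitor induced by oxidative stress, had 2.33 and 2.296 CPM in KALS-1, against 40.6 and 42.5 CPM in LN-18 and 72.7 and 179 CPM in T98G, and SRXN1, which repairs oxidised peroxiredoxins, had 2.63 and 2.705 CPM in KALS-1, against 9.19 and 12.4 CPM in LN-18 and 44.4 and 85.1 CPM in T98G. Of the NRF2-linked genes in the table, TXNRD1, thioredoxin reductase, was not called over LN-18, with 1241 and 1241 CPM in KALS-1, against 1625 and 1650.1 CPM in LN-18 and 2628 and 3216 CPM in T98G.

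The aldo-keto reductases had the widest gaps of the list. AKR1C2 (chromosome 10, 4987400 to 5018031), which reduces steroids and carbonyls, had 1.52 and 1.33 CPM in KALS-1, against 278 and 309 CPM in LN-18 and 1328 and 2862 CPM in T98G. AKR1B10, which reduces aldehydes and retinal, had 1.11 and 0.9696 CPM in KALS-1, against 105 and 108 CPM in LN-18 and 583 and 1849 CPM in T98G. The log2 fold change of AKR1C2 was -7.68 over LN-18 and -10.52 over T98G, and that of AKR1B10 -6.68 over LN-18 and -10.19 over T98G; AKR1C2 has near-identical copies, so its reads are uncertain. The T98G libraries differed from each other by more than 2-fold in both genes, and even the lower of them was over 500 times any KALS-1 library. ABCG2, a drug efflux pump, had 0.292 and 0.817 CPM in KALS-1, against 21.4 and 28.1 CPM in LN-18 and 42.5 and 47.2 CPM in T98G. CYP2S1 and CYP4V2, both cytochrome P450 genes, had 1.69 and 1.58 CPM and 3.33 and 3.47 CPM in KALS-1 and were lower than in all other libraries. The call for CYP4V2 over LN-18 was lost in edgeR's test without either KALS-1 library or LN-18 replicate 1 (adjusted p = 0.0569 to 0.0813).

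Other members of the list differed by smaller steps or from 1 line only. TALDO1, the transaldolase of the pentose phosphate pathway, was lower, with 118 and 121 CPM in KALS-1, against 244 and 257 CPM in LN-18 and 609 and 1035 CPM in T98G. In edgeR's test its call over LN-18 was lost without either KALS-1 or either LN-18 library (adjusted p = 0.0505 to 0.0818). PGD, which makes NADPH in that pathway, had 229.99 and 227 CPM in KALS-1, against 334 and 344 CPM in LN-18 and 996 and 1667 CPM in T98G and was called over T98G only. EPHX1, an epoxide hydrolase, and the efflux pump ABCC1 were likewise near LN-18 and far under T98G: EPHX1 had 115 and 110.3 CPM in KALS-1, against 93.6 and 94.2 CPM in LN-18 and 716 and 1848 CPM in T98G. ABCB1, the multidrug pump P-glycoprotein, was the reverse, with 0.409 and 0.817 CPM in KALS-1, against 29.1 and 29.97 CPM in LN-18 and 0.848 and 0.526 CPM in T98G, close to T98G and far under LN-18. ALDH1L2, a mitochondrial enzyme of folate metabolism that also makes NADPH, was the 1 higher member, with 11.4 and 12.8 CPM in KALS-1, against 0.9403 and 1.22 CPM in LN-18 and 0.106 and 0.0584 CPM in T98G. ME1 (log2 fold change -1.27 over LN-18 and -5.93 over T98G) and ALDH3B1 (0.13 over LN-18 and -0.92 over T98G) were the remaining members not called.

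FTL, the light chain of the iron store ferritin, was the lower gene with the most reads and had 1025 and 973 CPM in KALS-1, against 2744 and 2957 CPM in LN-18 and 6086 and 11093 CPM in T98G. Its log2 fold change was -1.51 (SE 0.32, adjusted p = 0.00494) over LN-18 and -3.10 (SE 0.34, adjusted p = 0.000216) over T98G in edgeR's test; without KALS-1 replicate 2 the contrast with LN-18 missed the threshold (adjusted p = 0.0531). PTGR1, an NADPH-dependent reductase of lipid aldehydes, and TRIM16L were lower as well, with log2 fold changes of -4.34 over LN-18 and -5.74 over T98G and of -3.35 over LN-18 and -4.34 over T98G; these 2 were picked after their values were seen. In the RefSeq windows the antioxidant response element, searched as TGACNNNGC on both strands, was in 1 of 9 lower members with a window (11.1%), in 5 of all 16 list members with one (31.2%) and in 13.6% of all windows. This motif was added after the data were seen. Each gene had 1 window, from 250 bases before to 50 bases after a start, so an element farther away could not be found. These shares therefore do not tell whether the lower members lack the element.

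**Figure D3:**
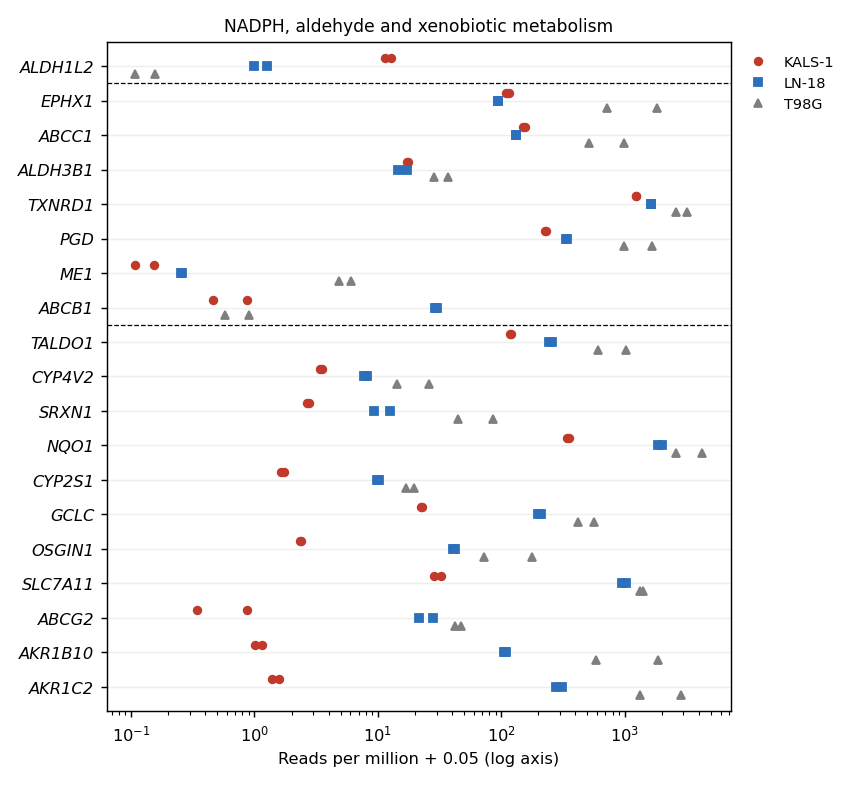
Level of 19 of the 20 tested genes of NADPH, aldehyde and xenobiotic metabolism, 1 point per library, as CPM plus 0.05 on a log axis; dashed lines part ALDH1L2, the gene called higher (top), the 7 genes not called and 11 of the 12 called lower (bottom). In the lower block KALS-1 circles lie left of LN-18 and T98G, with AKR1C2, AKR1B10 and SLC7A11 among the widest gaps.

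Solute carriers, the membrane transporters, ran both ways, and carriers of amino acids were among the higher (SLC6A20, described above) and the lower genes. SLC38A2, which imports glutamine and other neutral amino acids, had 674 and 686 CPM in KALS-1, against 1862 and 1657 CPM in LN-18 and 1992 and 1487 CPM in T98G. SLC1A5, a second glutamine transporter, had 140.4 and 129.98 CPM in KALS-1, against 307 and 315 CPM in LN-18 and 458 and 543 CPM in T98G. SLC7A11 and SLC7A2, described above, were lower too. Of all 33 tested solute carrier entries, some of them antisense genes, 8 were higher and 9 lower, beside 20.8% and 13.7% of all tested genes. Only 4 were higher without either KALS-1 library, either LN-18 library or T98G replicate 1, and 4 with TMM factors. Of the higher ones SLC27A2, a fatty acid importer and acyl-CoA synthetase, had 7.24 and 7.55 CPM in KALS-1, against no read in either LN-18 or T98G. Of 7 tested genes of the amino acid and unfolded protein responses 1 was higher, 2 lower and 4 not called, beside the same shares of all tested genes. TRIB3, a pseudokinase induced by ATF4, was lower, with 10.4 and 9.54 CPM in KALS-1, against 49.1 and 53.1 CPM in LN-18 and 551 and 251 CPM in T98G. The other members called in both contrasts were SLC7A11, lower, and ALDH1L2, higher, and both were already counted in the NADPH list above. CRELD2 and CBS were lower than T98G only, and CRELD2 had 49.8 and 51.8 CPM in KALS-1, against 49.1 and 50.7 CPM in LN-18 and 781 and 222 CPM in T98G. SDF2L1 was higher than LN-18 and lower than T98G, and HSPA1A was not called. The T98G libraries differed by more than 2-fold in TRIB3, CRELD2 and SDF2L1.

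Wnt genes moved member by member. Of 10 tested, 4 were higher, 2 lower and 4 not called, beside 20.8% higher and 13.7% lower of all tested genes. The median log2 fold change was 1.14 over LN-18 and 1.35 over T98G. With TMM or RLE factors 3 were higher and 2 lower. Among ligands, WNT2 had 5.66 and 8.06 CPM in KALS-1, against 0 and 0.102 CPM in LN-18 and no read in T98G, and WNT7B had 8.64 and 7.91 CPM in KALS-1, against 2.35 and 2.44 CPM in LN-18 and 0.212 and 0 CPM in T98G. PORCN, the enzyme that adds the lipid that ligands need for secretion, had 16.5 and 17.7 CPM in KALS-1, against 4.39 and 4.12 CPM in LN-18 and 7.48 and 7.01 CPM in T98G and was higher. The call for WNT7B over LN-18 was lost when either KALS-1 or either LN-18 library was left out (adjusted p = 0.0528 to 0.0699). Of the receptors, LGR5 was higher and its relative LGR4 had 38.2 and 38.8 CPM in KALS-1, against 8.25 and 7.12 CPM in LN-18 and 27.1 and 38.7 CPM in T98G, above LN-18 only. FZD6, a Frizzled receptor, had 0.175 and 0.204 CPM in KALS-1, against 33.9 and 29.4 CPM in LN-18 and 16.3 and 13.8 CPM in T98G and was lower, with a log2 fold change of -7.33 over LN-18 and -6.26 over T98G. FZD1 had 32.7 and 39.1 CPM in KALS-1, against 25.3 and 25.7 CPM in LN-18 and 24.3 and 69.8 CPM in T98G and was not called. TCF7, a nuclear effector and target of the pathway, was lower, with 4.14 and 4.54 CPM in KALS-1, against 12.9 and 14.8 CPM in LN-18 and 26.2 and 40.3 CPM in T98G.

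Of 9 tested genes of the BMP and TGF-beta pathways 1 was higher, 2 lower and 6 not called, beside 20.8% higher and 13.7% lower of all tested genes. ACVRL1, the receptor ALK1, was lower, with 0.117 and 0 CPM in KALS-1, against 22.5 and 24.6 CPM in LN-18 and 6.73 and 17.8 CPM in T98G. INHBB, the beta-B subunit of activin and inhibin, had no read in KALS-1, against 11.5 and 13.5 CPM in LN-18 and 6.097 and 3.33 CPM in T98G, at least 154-fold and 57.7-fold lower. CHRDL1, a BMP antagonist, was the 1 higher member, with 1.28 and 0.919 CPM in KALS-1, against 0.209 and 0.204 CPM in LN-18 and 0 and 0.0584 CPM in T98G. In edgeR's test its call over LN-18 was lost without KALS-1 replicate 1 or either LN-18 library (adjusted p = 0.0594 to 0.0663). TGFB2, a ligand gene, had 401 and 425 CPM in KALS-1, against 229.8 and 213 CPM in LN-18 and 224 and 114 CPM in T98G and was called over T98G only. PDGFRA, the receptor often amplified in glioblastoma, was lower, with 0.117 and 0.459 CPM in KALS-1, against 76.1 and 76.3 CPM in LN-18 and 2.81 and 6.78 CPM in T98G, while the ligand gene PDGFB had 40.2 and 35.9 CPM in KALS-1, against 14.7 and 14.5 CPM in LN-18 and 5.09 and 0.584 CPM in T98G and was called over T98G only. Among Notch and Hedgehog genes JAG2, a Notch ligand, had 21.5 and 22.8 CPM in KALS-1, against 1.99 and 1.68 CPM in LN-18 and 0.318 and 0.643 CPM in T98G, and HES4, a target of the pathway, had 28.95 and 31.5 CPM in KALS-1, against 2.403 and 1.98 CPM in LN-18 and 3.45 and 3.91 CPM in T98G. GLI3, a factor of Hedgehog signalling, was lower, with 1.58 and 0.9696 CPM in KALS-1, against 36.8 and 33.2 CPM in LN-18 and 38.9 and 54.7 CPM in T98G.

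Of 18 tested homeobox genes outside the HOX clusters 3 were higher, 4 lower and 11 not called, beside 20.8% and 13.7% of all tested genes. PRRX1, a homeobox factor of mesenchyme, had 56.2 and 59.05 CPM in KALS-1, against 0 and 0.102 CPM in LN-18 and 0.795 and 2.51 CPM in T98G, and HOXA13, of the HOXA cluster, had 34.3 and 40.7 CPM in KALS-1, against 7.42 and 7.43 CPM in LN-18 and 5.73 and 10.7 CPM in T98G. Both were called higher. PITX1, a factor of the hind limb, was lower, with 5.84 and 6.28 CPM in KALS-1, against 142 and 153 CPM in LN-18 and 78.7 and 77.5 CPM in T98G. FOXF1, a forkhead factor of lung and gut mesoderm and no homeobox gene, had 1.46 and 0.714 CPM in KALS-1, against 365 and 366 CPM in LN-18 and 121 and 209 CPM in T98G. Of the noncoding genes listed around it on chromosome 16, FENDRR and LINC01081 were lower as well. FOXC2-AS1 had no read in any of the 6 libraries and was not tested. ENSG00000270020, also not tested, had 0.233 and 0.153 CPM in KALS-1, against 0.209 and 0.509 CPM in LN-18 and 0.212 and 0.234 CPM in T98G. FENDRR (chromosome 16, 86474529 to 86509099), a noncoding RNA with 1427 bases between it and FOXF1 (chromosome 16, 86510527 to 86515418), had 1.75 and 1.79 CPM in KALS-1, against 330.04 and 331 CPM in LN-18 and 94.5 and 152 CPM in T98G. LINC01081 (chromosome 16, 86221423 to 86301303) had no read in KALS-1, against 6.69 and 6.72 CPM in LN-18 and 12.4 and 10.1 CPM in T98G, at least 82.04-fold and 137-fold lower. The log2 fold change of FOXF1 was -8.40 (SE 0.46, adjusted p = 1.48e-05) over LN-18 and -7.25 (SE 0.44, adjusted p = 1.48e-05) over T98G in edgeR's test.

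Several genes moved together with an antisense or divergent partner. Of 19 pairs with both genes tested, both were called the same way in 7, 1 gene alone in 2, neither in 10, and none in opposite directions. Among all tested genes 20.8% were called higher and 13.7% lower. GATA2, a zinc finger factor of blood and endothelium, had 50.8 and 48.5 CPM in KALS-1, against 18.5 and 18.5 CPM in LN-18 and 1.86 and 2.57 CPM in T98G, and GATA2-AS1 had 20.7 and 22.7 CPM in KALS-1, against 8.57 and 9.11 CPM in LN-18 and 1.91 and 2.16 CPM in T98G. TFAP2A, a factor of neural crest and epithelium, had 231 and 239 CPM in KALS-1, against 33.2 and 28.3 CPM in LN-18 and 97.97 and 127 CPM in T98G, and TFAP2A-AS1 had 8.58 and 7.196 CPM in KALS-1, against 1.36 and 1.98 CPM in LN-18 and 2.76 and 2.92 CPM in T98G. TFAP2A fell under the fold over T98G without T98G replicate 1 (log2 fold change 0.89) and with TMM factors (0.64). The partners of SLC7A11 and PITX1 were lower with them. The libraries kept strand, but no source used here says that the counting used it, so reads of overlapping partners may not be told apart; the pairs were picked after their values were seen.

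Keratins were higher in part, while cadherins and protocadherins ran both ways. KRT81, a hair keratin, had 577 and 569 CPM in KALS-1, against 106 and 105 CPM in LN-18 and 50.8 and 18.1 CPM in T98G, and KRT17, a keratin of basal and wounded epithelium, had 34.3 and 34.3 CPM in KALS-1, against 1.83 and 1.12 CPM in LN-18 and 0.318 and 0.117 CPM in T98G. Of 7 tested keratins 3 were called higher and none lower, beside 20.8% and 13.7% of all tested genes. All 7 were called higher than T98G, beside 35.6% of all tested genes, while KRT8 was lower than LN-18 (57.1 and 55.01 CPM in KALS-1, against 153 and 155 CPM in LN-18 and 13.5 and 13.03 CPM in T98G). KRT80 had 329 and 326 CPM in KALS-1, against 49.6 and 54.04 CPM in LN-18 and 74.1 and 9.99 CPM in T98G; its T98G libraries differ 7-fold, and its call over LN-18 was lost without either KALS-1 or either LN-18 library (adjusted p = 0.0685 to 0.0877), as was its call over T98G without either KALS-1 library (adjusted p = 0.0528 to 0.0544). Keratin reads, those of KRT81 and KRT86 above all, can be shared between copies and pseudogenes and are uncertain. Of 12 tested classical cadherins and protocadherins 1 was higher, 2 lower and 9 not called, beside 20.8% higher and 13.7% lower of all tested genes. The higher gene was CDH3, P-cadherin, with 23.99 and 26.2 CPM in KALS-1, against 2.51 and 4.94 CPM in LN-18 and no read in T98G. CDH1, E-cadherin, had 9.34 and 9.75 CPM in KALS-1, against 7.99 and 8.14 CPM in LN-18 and no read in T98G, close to LN-18.

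Of 17 tested structural matrix genes 5 were higher and 1 lower, beside 20.8% and 13.7% of all tested genes, and 4 to 7 were higher with 1 library left out. FRAS1, a protein of basement membranes, had 162 and 169 CPM in KALS-1, against 6.16 and 5.39 CPM in LN-18 and 4.19 and 2.16 CPM in T98G. COL26A1, a collagen, had 6.36 and 5.36 CPM in KALS-1, against 0 and 0.102 CPM in LN-18 and 0 and 0.0584 CPM in T98G, and FBN1, fibrillin of microfibrils, had 607 and 651 CPM in KALS-1, against 319 and 307 CPM in LN-18 and 53.2 and 77.7 CPM in T98G. FBN1 passed over LN-18 at the edge of the fold (log2 fold change 1.01, edgeR adjusted p = 0.00571); it fell under it with TMM factors (0.908), and missed the threshold without KALS-1 replicate 2 or either LN-18 library (adjusted p = 0.0528 to 0.0627). LAMA4, a laminin chain of vessels, was lower, with 18.2 and 19.6 CPM in KALS-1, against 42.7 and 42.7 CPM in LN-18 and 255 and 271 CPM in T98G. FN1, fibronectin, had 2233 and 2266 CPM in KALS-1, against 356 and 333 CPM in LN-18 and 476 and 1546 CPM in T98G, and was called over LN-18 only. The second T98G library overlapped neither KALS-1 library but lay within 1.5-fold of them.

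Secreted proteases and their inhibitors split too: of 13 tested, 6 were higher and 3 lower, beside 20.8% and 13.7% of all tested genes. HTRA1, a serine protease that cuts matrix and TGF-beta, had 264 and 245 CPM in KALS-1, against 17.3 and 15.1 CPM in LN-18 and 17.5 and 45.9 CPM in T98G, and MMP16, a membrane-bound metalloproteinase, had 84.4 and 88.2 CPM in KALS-1, against 18.6 and 15.3 CPM in LN-18 and 3.02 and 4.03 CPM in T98G. MMP13, a collagenase, was lower, with 1.87 and 2.35 CPM in KALS-1, against 23.98 and 21.2 CPM in LN-18 and 13.5 and 8.59 CPM in T98G, as were SLPI, an inhibitor of elastase (0.817 and 0.663 CPM in KALS-1), and ADAMTS19, which had no read in KALS-1, against 43.3 and 39.2 CPM in LN-18 and 1.75 and 1.46 CPM in T98G. Of 15 tested axon guidance genes 5 were higher and none lower, beside 20.8% and 13.7% of all tested genes. The higher genes numbered 3 without either KALS-1 library or LN-18 replicate 2, 4 without LN-18 replicate 1, 7 without T98G replicate 2, and 2 with TMM or RLE factors. PLXNA4, a semaphorin receptor, had 5.14 and 6.38 CPM in KALS-1, against 0.0522 and 0.356 CPM in LN-18 and 0.159 and 0.175 CPM in T98G, and NRP2, a neuropilin, had 134 and 131 CPM in KALS-1, against 5.59 and 5.95 CPM in LN-18 and 54.1 and 59.7 CPM in T98G. With TMM factors NRP2 fell under the fold over T98G (log2 fold change 0.788). EPHA5, an ephrin receptor, had 8.35 and 9.03 CPM in KALS-1, against 2.04 and 1.07 CPM in LN-18 and 2.28 and 2.92 CPM in T98G. Channel genes ran both ways, beside the same shares of all tested genes. Of 4 tested neurotransmitter-gated receptors 1 was higher, GRIK2, and 2 lower, GABRA2 (described above) among them. Of 6 sodium and calcium channels 2 were higher and 1 lower. Of 11 potassium channels 4 were higher and 0 lower, but 2 and 1 with TMM factors. GRIK2, a kainate receptor subunit, had 10.4 and 12.2 CPM in KALS-1, against 0.0522 and 0.102 CPM in LN-18 and 0.159 and 0.0584 CPM in T98G. CACNA1A, a calcium channel subunit and called higher, had 4.67 and 6.69 CPM in KALS-1, against 0.104 and 0.153 CPM in LN-18 and 0.05301 and 0.0584 CPM in T98G.

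**Figure D4:**
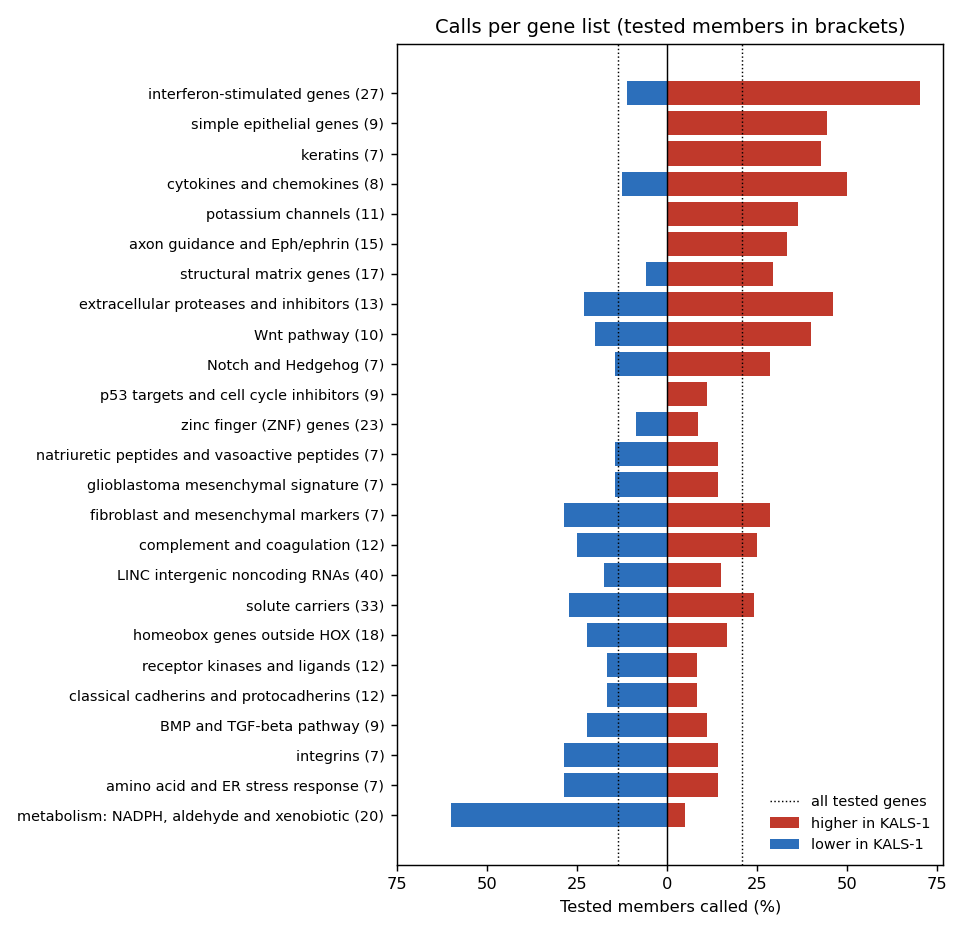
Share of the tested members of each of 25 gene lists with at least 7 tested members that were called higher (red, right of 0) or lower (blue, left of 0) in KALS-1 than in both LN-18 and T98G, with the number tested in brackets; dotted lines give the shares among all tested genes (20.8% higher, 13.7% lower). The bars that reach farthest past those lines are the interferon list to the right and the NADPH, aldehyde and xenobiotic list to the left, and lists can share genes.

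Markers of glia and of other cell types were checked beside these results. Of 41 glial and glioblastoma markers 4 were in the table and 2 tested: SOX2, a factor of neural stem cells, had 3.09 and 2.14 CPM in KALS-1, against 0 and 0.204 CPM in LN-18 and 0.05301 and 0 CPM in T98G and was higher, and GAP43 had 0.7005 and 0.919 CPM in KALS-1, against 0.9403 and 0.763 CPM in LN-18 and 0.106 and 0.117 CPM in T98G. FABP7 and PTPRZ1 stayed under 0.5 CPM in all 6 libraries, and were not tested. Of 25 immune markers 5 were in the table. PTPRC, which encodes CD45, had 5.896 and 6.02 CPM in KALS-1, against 0.0522 and 0 CPM in LN-18 and 0 and 0.0584 CPM in T98G, and CD14 had 10.04 and 10.8 CPM in KALS-1, against 0.679 and 0.865 CPM in LN-18 and 0.318 and 0.117 CPM in T98G; both were higher. ITGAM ran the other way and was called lower than T98G, with 0 and 0.05103 CPM in KALS-1, against 0.209 and 0.153 CPM in LN-18 and 1.06 and 2.16 CPM in T98G. CSF1R was called higher than T98G only, with 0.992 and 1.63 CPM in KALS-1, against 1.46 and 1.48 CPM in LN-18 and 0.159 and 0.351 CPM in T98G. TMEM119 was not tested and stayed under 0.3 CPM in all 6 libraries. Of the 3 endothelial and mural markers in the table EMCN and CSPG4 were higher, CSPG4 with 11.03 and 10.8 CPM in KALS-1, against 0.784 and 0.763 CPM in LN-18 and 1.54 and 0.643 CPM in T98G. KDR had 0.467 and 0.612 CPM in KALS-1 and was called higher than T98G only. The 5 listed immune markers summed to 17.0 and 18.7 CPM in KALS-1, 2.51 and 2.49 CPM in LN-18 and 1.64 and 2.69 CPM in T98G; their part in the interferon and chemokine results was not tested.

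KALS-1 was close to T98G and unlike LN-18 in some genes and the reverse in others. In all, 111 genes were higher than LN-18 and 195 lower with no call against T98G, and 177 were higher and 102 lower than T98G with no call against LN-18. LYPD6B had 29.3 and 29.5 CPM in KALS-1, against 0.104 and 0.204 CPM in LN-18 and 41.6 and 44.9 CPM in T98G, close to T98G, as was AFF3, with 19.6 and 21.9 CPM in KALS-1, against 1.41 and 1.37 CPM in LN-18 and 10.9 and 17.5 CPM in T98G. ADAMTSL1 and COL11A1, a collagen of cartilage, were close to LN-18 and above T98G: COL11A1 had 15.6 and 14.2 CPM in KALS-1, against 9.77 and 12.2 CPM in LN-18 and 1.06 and 0.117 CPM in T98G. CTSZ, a lysosomal protease, had 2.98 and 3.37 CPM in KALS-1, against 3.08 and 2.09 CPM in LN-18 and 65.5 and 83.9 CPM in T98G, and TSHZ3 had 1.52 and 1.17 CPM in KALS-1, against 1.57 and 1.42 CPM in LN-18 and 17.1 and 27.2 CPM in T98G, both near LN-18 and under T98G. A further 11 genes were higher than LN-18 and lower than T98G, and 55 were lower than LN-18 and higher than T98G, KALS-1 lying between the other lines.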

How the data were processed

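The authors deposited raw read counts, FPKM and a gene length for each gene and library, per the file headers. The tools listed in the submitters' processing notes are HISAT2 2.2.1, StringTie 1.3.3, HTSeq 0.6.0, FastQC 0.10.1 and cutadapt 1.9.1, with build hg38/GRCh38. Their roles and the annotation are not given in the sources used here, nor is how the genes were chosen.

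Each library total was worked back from reads, length and FPKM from genes of 20 FPKM and 200 reads or more, and served as the edgeR 4.0.16 library size (R 4.3.3). Such totals, unlike TMM, do not assume that most listed genes are alike. After edgeR's low-count filter 1560 genes were fitted with 1 coefficient per line over 6 libraries; p-values are Benjamini-Hochberg adjusted over them. SEs were worked back from the F statistic. A count of 0 allows up to 3 reads per library (0.153 to 0.175 CPM in these libraries, counting error only); bounds on folds use 3 reads over both libraries of a line. Symbols were found for 1917 genes, and gene coordinates are from GENCODE 29 (GRCh38).

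Named genes are the 12 each way with the largest smaller fold (at least 10 CPM on the higher side), the 6 each way with most reads, up to 4 called members per list (at least 5 CPM) and 4 genes per one-sided pattern; others are marked as picked after their values were seen or stand as members of a described list. Members, lists and this rule were chosen with earlier results of these data known. Alternatives were TMM and RLE factors, no filter, DESeq2 1.42.0, limma 3.58.1 (prior count 2), all 8 lines, a replicate block, each library left out, a 4-fold threshold and, added after seeing the data, each contrast on its own 4 libraries. A few genes that the naming rule picks are not reported here.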

Additional observations from a re-analysis of the deposited data

How the results depend on the processing

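Counts of genes higher (324) and lower (213) than both lines stayed within 1.5 times under TMM (278 and 247), RLE (281 and 245), no filter (340 and 216), DESeq2 (303 and 203), limma (322 and 204), all 8 lines in the fit (364 and 216) and, chosen after seeing the data, each contrast on its own 4 libraries (327 and 197). A log2 fold change of at least 2 left 203 higher than both lines and 296 higher than LN-18, by its own construction. With single libraries left out, higher genes numbered 252 to 365 and lower genes 147 to 225; where this leaves a line with 1 library, that library is assumed to vary like the others. For T98G that assumption goes against its own pair: the common dispersion was 0.00172 without either T98G library and 0.0765 to 0.0792 without a KALS-1 or LN-18 library, so the upper ends of these ranges rest on a spread that is too small. Of the 324 higher genes 247 to 315 and of the 213 lower genes 143 to 195 were called again. Replicate numbers did not pair the lines (correlations of deviations -0.02 to 0.03), and the replicate block gave 319 higher and 205 lower. Of 112 named genes, 97 kept their call under every alternative other than the 4-fold threshold, and none reversed; the other 15, of which FBN1, FTL, KRT80, WNT7B, NRP2 and TNFAIP3 are named above with the settings, lost it under at least 1. Depth limits low genes: a count of 0 allows 0.153 to 0.175 CPM. Counts of listed genes cannot speak for genes the table does not hold.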

Other observations

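On chromosome 12 a run of adjacent genes for C-type lectin and related receptors changed direction within a short distance. CLEC1A (chromosome 12, 10069554 to 10111627) had 21.6 and 22.4 CPM in KALS-1, against 0.0522 and 0.204 CPM in LN-18 and 0.159 and 0.292 CPM in T98G, and CLEC7A (chromosome 12, 10116777 to 10130258), which encodes the fungal glucan receptor dectin-1, had 28.5 and 30.9 CPM in KALS-1, against 0.209 and 0.0509 CPM in LN-18 and 0.106 and 0.351 CPM in T98G. Both were higher in KALS-1 than in LN-18 and T98G (edgeR adjusted p of CLEC7A 2.56e-05 and 2.47e-05). OLR1 (chromosome 12, 10158301 to 10172138), a receptor for oxidised lipoprotein with 28042 bases between it and CLEC7A, had 0.992 and 1.94 CPM in KALS-1, against 43.3 and 42.7 CPM in LN-18 and 55.3 and 13.7 CPM in T98G, and TMEM52B (chromosome 12, 10170542 to 10191801) had 0.759 and 1.02 CPM in KALS-1, against 58.9 and 60.2 CPM in LN-18 and 258 and 111 CPM in T98G. These 2 were lower in KALS-1, with log2 fold changes of -4.85 over LN-18 and -4.54 over T98G for OLR1 and -6.05 over LN-18 and -7.68 over T98G for TMEM52B. OLR1 and TMEM52B lie on opposite strands and overlap, so reads counted without strand could not be told apart between them. CLEC9A and CLEC12B, on the other side of CLEC1A, were under 2 CPM in all 6 libraries. The locus was picked after its values were seen.

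PLIN2, a coat protein of lipid droplets, had 43.5 and 46.7 CPM in KALS-1, against 0.104 and 0 CPM in LN-18 and 17.2 and 27.9 CPM in T98G, called higher; over T98G the log2 fold change was at the edge of the fold (1.00), and the call was lost with TMM factors (0.589), RLE factors, limma, and without either KALS-1 replicate or T98G replicate 1. ABCA1, a cholesterol exporter, had 27.7 and 28.02 CPM in KALS-1, against 3.76 and 4.33 CPM in LN-18 and 6.47 and 8.65 CPM in T98G and was higher. ELSPBP1, a sperm-binding protein of the epididymis, had 37.3 and 36.3 CPM in KALS-1, against no read in LN-18 and 0.424 and 0.175 CPM in T98G. PEG10, an imprinted gene, was lower, with 60.4 and 60.02 CPM in KALS-1, against 298 and 274 CPM in LN-18 and 309 and 161 CPM in T98G.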
